A study of Mus musculus with 4 samples.

Results

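The antiviral interferon-stimulated genes were examined in RNA sequencing of liver from mice fed a steatohepatitis-inducing diet with or without 7-ketocholesterol (7KC), an oxidized derivative of cholesterol. They were taken by symbol from a list of 43 effectors, sensors and regulators of the type I interferon response. Of the 43 symbols, 42 were found among the 24346 symbols listed for each library, and Rnf213 was not analysed here. All 42 averaged 0.5 FPKM or more over the 4 libraries and were tested among 12299 genes. FPKM, the fragments assigned to a gene per kilobase of its exons and scaled for sequencing depth, takes gene length into account, so levels of different genes can be set side by side.

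The mice were male wild type C57BL/6, and all of them ate a NASH diet, rich in fat, cholesterol and sucrose with bile salt, for 3 weeks. In the 7KC group 7KC was mixed into this diet, and the control group ate it plain. There were 2 liver RNA libraries per group, and nothing in the labels says whether a library came from 1 animal. P-values therefore measure the spread between these libraries, which may be technical. Reading the steps between low values gave a depth of 13600000 to 17100000 reads on the scale of the deposited values. At the median length of genes with a lone transcript, 0.5 FPKM then stood for 11.1 to 13.9 reads. Across genes, the control libraries correlated at 0.98 with each other and at 0.958 to 0.979 with the 7KC libraries. Hepatocyte markers dominated every library, with Alb, which encodes albumin, at 18988 to 41547 FPKM.

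Type I interferons bind a receptor on nearly every cell and, through the kinases Jak1 and Tyk2, switch on a transcription factor complex that holds Stat2 and Irf9. This complex enters the nucleus and binds a short DNA element, the interferon-stimulated response element (ISRE), in front of genes that block viral entry, copying or translation. Interferon gamma uses a different receptor and acts mainly at other elements, the gamma-activated sites (GAS), and the target genes of both pathways overlap. In the liver, hepatocytes, Kupffer cells, endothelial cells and incoming leukocytes can all express such genes.

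Antiviral genes as a group were higher in the 7KC libraries. With limma on log2(FPKM + 0.5) and adjustment over all 12299 genes, 6 of the 42 members rose at an adjusted p under 0.05 (14.3%), against 0.480% of all tested genes. These were Zbp1, Ifit2, Samhd1, Apobec3, Oasl2 and Oasl1. No member fell, against 0.0244% of all genes, and at an unadjusted p under 0.05 there were 32 members higher (76.2%, against 12.0% of all genes) and 0 lower. In 37 members (88.1%) each 7KC library exceeded each control library, which held for 25.1% of all genes, and in no member did both lie below, which held for 27.4%. The 37 include Oas1b, whose groups nearly touched, and the count was 36 when rescaled by the median ratio. Without any estimate of variance, 16 members (38.1%) were at least 2-fold higher by group means without overlap, against 6.50% of all genes. At the edge of this fold Oas1a, a synthetase of signaling adenylates, stood just inside with a ratio of 2.07. Isg15, a ubiquitin-like modifier, stood just outside with 1.99. Mx1, Oas1g and Oas1b averaged 0.454, 0.45 and 0.498 FPKM in control samples, so they met the filter only through their 7KC libraries. All of them are in the 37, and Mx1 and Oas1g are in the 16, so for these genes the counts are tied to the filter. In bulk liver, more cells of a type and more RNA per cell cannot be told apart.

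The fitted changes were above 0 in all 42 members, of which 5 overlapped between groups, and they differed in size. Their median log2 fold change was 0.72, against -0.03 for all tested genes, and single changes ran from 0.08 in Trim25 and Bst2 to 2.27 in Zbp1. Between the 2 control libraries the median absolute difference of a member was 0.14 on the log2 scale, and between the 2 7KC libraries it was 0.19. In 34 of 42 members the group difference exceeded both of that member's own within-group differences. The share of all tested genes that did so was not computed, so this count is a description only. With 2 libraries per group an exact permutation test of a lone gene cannot go below 0.333, so calls rest on the variance shared between genes. The number of members past the threshold fell to 0 without 7KC replicate 1 and to 0 without 7KC replicate 2, with 30 and 29 members then higher at an unadjusted p under 0.05, and it was 11 without control replicate 1.

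**Figure D1:**
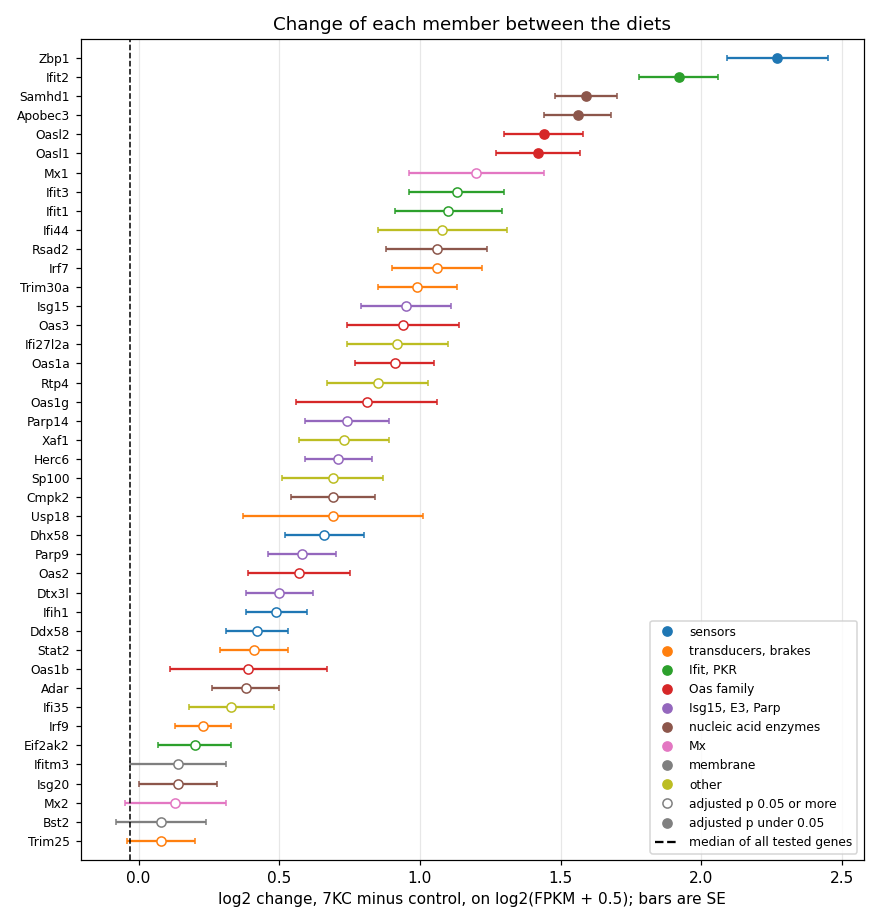
The log2 fold change (x axis, 7KC minus control, on the log2(FPKM + 0.5) scale, bars are SE) of the 42 members, ordered by size and coloured by role, with filled points for an adjusted p under 0.05. All points lie above the median of all tested genes at -0.03, from 0.08 to 2.27, and the 6 filled points are the largest changes.

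Of the 4 nucleic acid sensors, 1 passed the threshold and all 4 separated. Of all tested genes, 0.480% passed as higher and 25.1% separated with the higher values in the 7KC group. Counts within a role are descriptions and were not tested against such shares. Zbp1 (chromosome 2, 173206612 to 173218923, minus strand), a receptor for Z-form nucleic acid that can start necroptotic cell death, was at 10.4 and 8.01 FPKM in control samples and at 51.5 and 41.2 FPKM in 7KC samples. The groups were far apart, with means of 9.23 ± 1.73 and 46.4 ± 7.32 FPKM (SD, n = 2 each). Its log2 fold change of 2.27 (SE 0.18, limma adjusted p 0.0244) was the 24th largest among all tested genes. The helicase genes moved less. Dhx58 (chromosome 11, 100694884 to 100704271, minus strand), whose product LGP2 tunes the other RNA helicase sensors, was at 3.77 and 3.3 FPKM in control samples and at 6.33 and 5.43 FPKM in 7KC samples. The means were 3.53 ± 0.33 and 5.88 ± 0.633 FPKM (SD, n = 2 each), with a log2 fold difference of 0.66 (SE 0.14, adjusted p 0.108). Ifih1, which encodes the long double-stranded RNA sensor MDA5, was at 6.3 and 6.11 against 9.19 and 8.63 FPKM, a log2 fold difference of 0.49 (adjusted p 0.122). Ddx58, which encodes RIG-I, was at 5.83 and 5.62 against 7.76 and 7.93 FPKM, a log2 fold difference of 0.42 (adjusted p 0.155). In these 3 helicase genes the groups did not overlap, but none passed the threshold.

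Among the transducers and brakes none of 6 passed the threshold. At an unadjusted limma p under 0.05, 3 were higher, against 12.0% of all tested genes. In 5 of 6 the 7KC group was higher without overlap, against 25.1% of all tested genes. Irf7 (chromosome 7, 141262706 to 141266481, minus strand), the transcription factor that amplifies interferon production, was at 29.7 and 22.8 FPKM in control samples and at 58.5 and 51.1 FPKM in 7KC samples. The means were 26.2 ± 4.86 and 54.8 ± 5.23 FPKM (SD, n = 2 each), a ratio of 2.09, and its log2 fold change 1.06 (SE 0.16, adjusted p 0.0619). Trim30a (chromosome 7, 104409025 to 104465193, minus strand), a brake on Toll-like receptor signaling with close relatives beside it, was at 3.31 and 2.87 against 6.21 and 7.08 FPKM. Its log2 fold change was 0.99 (SE 0.14, adjusted p 0.0583), from means of 3.09 ± 0.309 and 6.64 ± 0.612 FPKM. The members of the nuclear complex, Stat2 and Irf9, were higher by less. Stat2 was at 12.2 and 11 against 16.1 and 15 FPKM (log2 fold change 0.41, adjusted p 0.178), and Irf9 at 15.9 and 15.6 against 18.4 and 18.6 FPKM (log2 fold change 0.23, adjusted p 0.33). Usp18, the protease that strips Isg15 from proteins and dampens the receptor, was uneven: it stood at 5.65 and 10.7 FPKM in control samples and at 15.1 and 11 FPKM in 7KC samples. Its log2 fold change of 0.69 had an SE of 0.32 (limma adjusted p 0.331), and it ran from 0.26 to 1.13 when control replicate 1 or control replicate 2 was left out. Trim25, a ubiquitin ligase of the RIG-I pathway, was at 21.7 and 22.3 against 21.7 and 25 FPKM. These groups overlapped, and the 95% interval of its log2 fold change ran from -0.22 to 0.38.

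The Ifit genes encode proteins that grip foreign RNA and stop its translation, and they lie side by side on chromosome 19. Ifit2 (34550694 to 34576419, plus strand) rose from 1.67 and 1.52 FPKM in control samples to 7.99 and 6.95 FPKM in 7KC samples. The means were 1.6 ± 0.11 and 7.47 ± 0.735 FPKM (SD, n = 2 each), a ratio of 4.68, and the log2 fold change 1.92 (SE 0.14, limma adjusted p 0.0244). Its neighbours had larger levels in the control group and smaller changes. Ifit3 (34583531 to 34588731, plus strand) stood at 5.29 and 5.64 against 14.7 and 10.7 FPKM, a log2 fold difference of 1.13 (SE 0.17, adjusted p 0.0619) between means of 5.46 ± 0.244 and 12.7 ± 2.78 FPKM. Ifit1 was at 2.41 and 2.28 against 6.69 and 4.66 FPKM, a log2 fold difference of 1.10 (SE 0.19, adjusted p 0.0748). In all 3 genes 7KC replicate 1 was the highest library. Eif2ak2, which encodes the kinase PKR that shuts down translation on double-stranded RNA, was at 4.29 and 3.79 against 4.68 and 4.76 FPKM. Both 7KC libraries were higher, but the log2 fold change was 0.20 (SE 0.13, adjusted p 0.459). Ifit1 and Ifit3 have near copies in the same cluster, so reads may have been exchanged between them.

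The Oas family was low in the liver, and the fitted change of every member was above 0. Oas enzymes build short adenylate chains that activate the ribonuclease RNase L, and the Oas-like proteins carry ubiquitin-like domains. Oasl2 (chromosome 5, 114896936 to 114912234, plus strand) rose from 3.21 and 3.22 FPKM to 10.5 and 8.71 FPKM, a log2 fold difference of 1.44 (SE 0.14, limma adjusted p 0.0329) between means of 3.22 ± 0.00683 and 9.62 ± 1.29 FPKM (SD, n = 2 each). Its neighbour Oasl1 (chromosome 5, 114923240 to 114937915, plus strand), whose product holds back the translation of Irf7, rose from 3.03 and 2.56 FPKM to 8.99 and 7.6 FPKM. That was a log2 fold difference of 1.42 (SE 0.15, adjusted p 0.0412) between means of 2.79 ± 0.336 and 8.29 ± 0.977 FPKM. Without control replicate 2 the adjusted p was 0.0634 for Oasl2 and 0.0769 for Oasl1, and with no variance trend it was 0.0518 and 0.0594. Oasl1 was also at 0.0591 under quantile normalization and at 0.0518 with a filter at a mean of 5 FPKM. The other 5 genes, in a cluster on the same chromosome, did not pass. Oas1a was at 2.21 and 2.49 against 5.23 and 4.51 FPKM (log2 fold change 0.91, adjusted p 0.0629), and Oas3 at 0.501 and 0.749 against 1.54 and 1.74 FPKM (log2 fold change 0.94, adjusted p 0.105). Oas2 was at 0.872 and 1.2 against 1.75 and 1.79 FPKM (log2 fold change 0.57, adjusted p 0.214). The groups of these 3 genes did not overlap. Oas1b, annotated as a polymorphic pseudogene, stood at 0.464 and 0.532 FPKM in control samples, and at 1.16 and 0.532 FPKM in 7KC samples. Its lower 7KC library thus exceeded a control library by less than the digits printed. The log2 fold change of Oas1b was 0.39 (SE 0.28, limma adjusted p 0.511), and 0.05 without 7KC replicate 1. Oas1g, a close relative of Oas1a, was at 0.42 and 0.48 against 0.88 and 1.5 FPKM (log2 fold change 0.81, adjusted p 0.197). At such levels a value rests on few reads, and the Oas1 genes can share them.

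**Figure D2:**
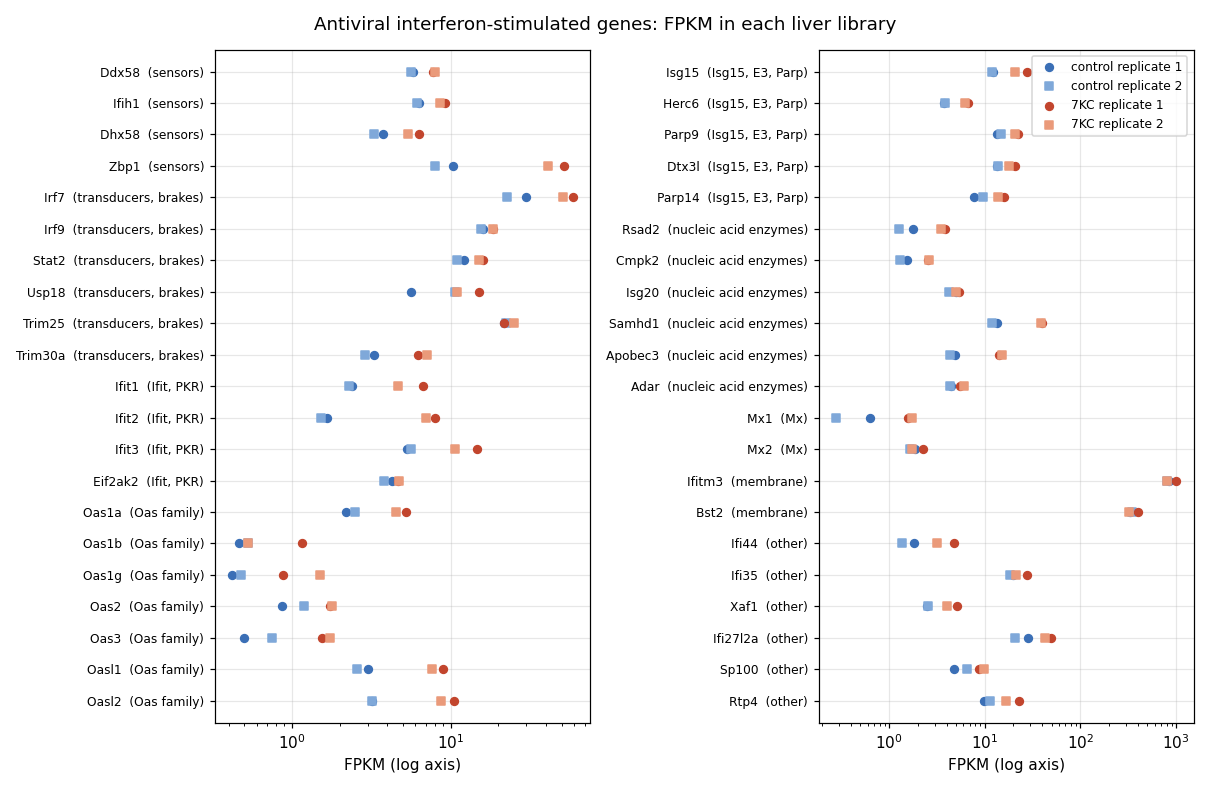
FPKM (x axis, log scale) of the 42 members in the 2 control libraries (blue) and the 2 7KC libraries (red), grouped by role. The colours separate in 37 members, among them Zbp1 and Samhd1, and overlap in Trim25, Isg20, Mx2, Ifitm3 and Bst2.

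Genes of the Isg15 system and its neighbours were all higher, and none passed the threshold. All 5 were higher at an unadjusted limma p under 0.05, against 12.0% of all tested genes. Isg15 (chromosome 4, 156199424 to 156200818, minus strand) stood at 12.3 and 11.9 FPKM in control samples and at 27.5 and 20.7 FPKM in 7KC samples. The means were 12.1 ± 0.255 and 24.1 ± 4.83 FPKM (SD, n = 2 each), with a log2 fold difference of 0.95 (SE 0.16, adjusted p 0.0704). Herc6, the main ligase that joins Isg15 to proteins in mice, was at 3.74 and 3.84 against 6.72 and 6.3 FPKM, a log2 fold difference of 0.71 (SE 0.12, adjusted p 0.0704). The remaining 3 genes of this group lie together on chromosome 16. Parp14 (35832874 to 35871544, minus strand), an ADP-ribosyl transferase, was at 7.75 and 9.62 against 15.8 and 13.9 FPKM, a log2 fold difference of 0.74 (SE 0.15, adjusted p 0.0966) between means of 8.69 ± 1.32 and 14.8 ± 1.32 FPKM. Parp9 and the ubiquitin ligase Dtx3l work as a pair. Parp9 was at 13.5 and 14.9 against 22.5 and 20.6 FPKM (log2 fold change 0.58, adjusted p 0.097), and Dtx3l at 13.5 and 13.7 against 20.8 and 18.1 FPKM (log2 fold change 0.50, adjusted p 0.13). These genes overlap at their starts on opposite strands, and whether the counting used strand is not given in the sources used here.

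Enzymes that act on nucleotides and nucleic acids held 2 of the 6 rises. Samhd1 (chromosome 2, 157097533 to 157135265, minus strand), which destroys the building blocks of DNA and so starves viral copying, rose from 13.6 and 12 FPKM to 39.6 and 39.2 FPKM. The 7KC libraries were almost level. The means were 12.8 ± 1.09 and 39.4 ± 0.319 FPKM (SD, n = 2 each) and the log2 fold change was 1.59 (SE 0.11, limma adjusted p 0.0244). Apobec3 (chromosome 15, 79891659 to 79915906, plus strand), a cytidine deaminase that mutates retroviral DNA, rose from 4.88 and 4.38 FPKM to 14 and 15.3 FPKM, a log2 fold difference of 1.56 (SE 0.12, adjusted p 0.0244) between means of 4.63 ± 0.353 and 14.7 ± 0.924 FPKM. Rsad2 and Cmpk2, neighbours on chromosome 12, act in series: Cmpk2 supplies nucleotides from which Rsad2 (viperin) makes a chain terminator. Rsad2 was at 1.77 and 1.27 against 3.89 and 3.48 FPKM (log2 fold change 1.06, adjusted p 0.0704). Cmpk2 was at 1.56 and 1.3 against 2.58 and 2.63 FPKM (log2 fold change 0.69, adjusted p 0.115). The groups of both genes were apart. Adar, the RNA-editing deaminase, was at 4.47 and 4.3 against 5.56 and 6.16 FPKM (log2 fold change 0.38, adjusted p 0.218). The exonuclease gene Isg20 overlapped, at 5.06 and 4.27 against 5.35 and 4.98 FPKM.

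The Mx genes, which encode GTPases that trap viral capsids, differed from each other. Mx1 (chromosome 16, 97447035 to 97462907, minus strand), for which C57BL/6 carries a defective allele, was at 0.629 and 0.279 FPKM in control samples and at 1.57 and 1.75 FPKM in 7KC samples. The means were 0.454 ± 0.248 and 1.66 ± 0.121 FPKM (SD, n = 2 each), and the log2 fold change was 1.20 (SE 0.24, adjusted p 0.0966), on a scale that understates the change of low genes. Mx2 (chromosome 16, 97535308 to 97560900, plus strand), annotated as a polymorphic pseudogene, was at 1.89 and 1.66 against 2.26 and 1.73 FPKM (means 1.77 ± 0.162 and 1.99 ± 0.38 FPKM). It overlapped, with a log2 fold difference of 0.13 (SE 0.18, adjusted p 0.746) and a 95% interval from -0.33 to 0.58, and the difference between the Mx genes was not tested.

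Membrane restriction factors were by far the most abundant members and did not separate. Ifitm3 (chromosome 7, 141009586 to 141010770, minus strand), which hinders viral fusion in endosomes, was at 845 and 796 FPKM in control samples and at 1011 and 809 FPKM in 7KC samples. Bst2 (chromosome 8, 71534255 to 71537456, minus strand), or tetherin, which holds budding virus at the cell surface, was at 334 and 349 against 405 and 322 FPKM. In each of them 7KC replicate 1 was the highest library and 7KC replicate 2 lay below a control library. Means were 820 ± 34.6 and 910 ± 143 FPKM for Ifitm3, and 341 ± 10.4 and 363 ± 58.3 FPKM for Bst2 (SD, n = 2 each). The log2 fold changes were 0.14 (SE 0.17, adjusted p 0.707) and 0.08 (SE 0.16, adjusted p 0.824), and turned to -0.02 and -0.08 without 7KC replicate 1. Together they made up 80.2% and 80.5% of the summed FPKM of the members in control samples, against 71.6% and 69.5% in 7KC samples. The summed level of the other 40 members was 291 and 277 FPKM in control samples and 561 and 497 FPKM in 7KC samples.

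The remaining 6 members were all higher without overlap, against 25.1% of all tested genes, and none passed. Of these members, 5 were higher at an unadjusted limma p under 0.05, against 12.0% of all tested genes. Ifi44 (chromosome 3, 151730922 to 151749960, minus strand), an interferon-induced cytoplasmic protein, was at 1.81 and 1.36 against 4.73 and 3.15 FPKM, a log2 fold difference of 1.08 (SE 0.23, adjusted p 0.106) between means of 1.58 ± 0.315 and 3.94 ± 1.12 FPKM (SD, n = 2 each). Ifi27l2a (chromosome 12, 103442167 to 103443680, minus strand), with a close relative next to it, was at 28.3 and 20.7 against 49.8 and 43.1 FPKM, a log2 fold difference of 0.92 (SE 0.18, adjusted p 0.0941) between means of 24.5 ± 5.36 and 46.4 ± 4.74 FPKM. Rtp4, a receptor-transporting protein, was at 9.84 and 11.4 against 22.6 and 16.7 FPKM (log2 fold change 0.85), and Xaf1, which promotes cell death by opposing an inhibitor of caspases, at 2.52 and 2.56 against 5.1 and 4.03 FPKM (0.73). Sp100, a component of nuclear bodies, was at 4.74 and 6.54 against 8.68 and 9.95 FPKM (0.69). Ifi35 had the smallest change of these, at 19.8 and 18.4 against 27.4 and 21.2 FPKM (log2 fold change 0.33, adjusted p 0.339).

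Members were also read by level. The 6 members with a mean under 2 FPKM had a median log2 fold change of 0.69, the 20 members from 2 to 10 FPKM one of 0.82, and the 16 members at 10 FPKM or more one of 0.64. Of the rises past the threshold, 0 were in the lowest band, 4 in the middle band and 2 in the upper band, and 4 members of the lowest band were higher at an unadjusted p under 0.05. Within the 7KC group, replicate 1 was above replicate 2 in 29 of 42 members (69%), against 52.3% of all tested genes. Within the control group, replicate 1 was above replicate 2 in 25 of 42 (59.5%), against 53.9%. The highest library was a 7KC library in all 42 members, and the lowest was a control library in 41 of them. The exception was Bst2, with its lowest value in 7KC replicate 2. Over all tested genes the highest library was 7KC replicate 1 in 16.5% and 7KC replicate 2 in 29%. The lowest was control replicate 1 in 18.7% of all tested genes and control replicate 2 in 29.3%.

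Promoters were then inspected for what the members share in sequence. RefSeq start sites on GRCm38.p6 gave windows of 300 bases, from 250 before to 50 after the start, for 31 of the 42 members (40 windows). An ISRE core was searched as GAAANNGAAA on both strands (TTTCNNTTTC on the other), and a GAS core as TTCNNNGAA, which reads the same on both. The ISRE core was present for 15 of 31 members (48.4%), against 3.95% of 9375 tested genes with a window. The GAS core was present for 9 of 31 (29%), against 8.62%. Both were present in 4 members, and in 2 windows a match of one overlapped a match of the other. Members with the ISRE core had a median log2 fold change of 0.91 (0.08 to 1.56) and members without it one of 0.70 (0.08 to 1.92), and the ranges overlapped. A match describes letters in the window and not a bound site.

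To show how the ISRE core looked, a match is printed for the member with the largest change in each role that has one. It is the first match of the window, with up to 10 bases on either side. The stretches are written in the direction of the gene, from 5′ to 3′, with only that first match in capitals and the place on GRCm38:
Ifih1, chr2:62646206-62646233, minus strand: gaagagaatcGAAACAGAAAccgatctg
Trim30a, chr7:104465210-104465239, minus strand: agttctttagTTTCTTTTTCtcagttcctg
Ifit3, chr19:34583363-34583392, plus strand: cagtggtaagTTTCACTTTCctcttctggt
Oas3, chr5:120777715-120777744, minus strand: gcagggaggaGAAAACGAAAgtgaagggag
Isg15, chr4:156200877-156200906, minus strand: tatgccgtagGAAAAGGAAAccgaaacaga
Apobec3, chr15:79892258-79892287, plus strand: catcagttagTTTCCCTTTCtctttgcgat
Ifitm3, chr7:141010723-141010752, minus strand: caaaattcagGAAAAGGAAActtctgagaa

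The core started 156 bases before the start site in Ifit3, 140 in Apobec3, 78 in Isg15, 75 in Oas3 and 36 in Trim30a, and lay 32 bases after the start in Ifih1 and 2 bases after it in Ifitm3. The Isg15 window held 3 matches, and those of Ifit3 and Ifitm3 held 2. In Isg15 a further match overlaps the printed one and runs on into its lower-case bases. Ifit3 and Ifitm3 thus both carried the core, with log2 fold changes of 1.13 and 0.14. Among the members past the threshold the first 4 in order of p with a window were Samhd1, Ifit2, Apobec3 and Oasl2. For each the window is printed in the same direction, with matches to either core in capitals, and for Ifit2 and Apobec3 it is that of the outermost RefSeq start used here:
Samhd1, chr2:157135047-157135346, minus strand: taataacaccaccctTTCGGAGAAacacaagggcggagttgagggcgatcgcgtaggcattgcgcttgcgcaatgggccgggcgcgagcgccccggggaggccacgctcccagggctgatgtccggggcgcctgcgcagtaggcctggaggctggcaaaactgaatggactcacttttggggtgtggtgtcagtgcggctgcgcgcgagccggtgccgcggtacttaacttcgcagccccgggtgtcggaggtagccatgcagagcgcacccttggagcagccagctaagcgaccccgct
Ifit2, chr19:34550444-34550743, plus strand: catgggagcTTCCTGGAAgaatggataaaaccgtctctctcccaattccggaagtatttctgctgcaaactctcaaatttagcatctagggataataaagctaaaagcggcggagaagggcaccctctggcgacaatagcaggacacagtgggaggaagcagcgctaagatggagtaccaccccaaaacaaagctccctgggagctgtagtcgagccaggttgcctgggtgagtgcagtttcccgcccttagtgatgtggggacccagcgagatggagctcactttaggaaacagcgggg
Apobec3, chr15:79892158-79892457, plus strand: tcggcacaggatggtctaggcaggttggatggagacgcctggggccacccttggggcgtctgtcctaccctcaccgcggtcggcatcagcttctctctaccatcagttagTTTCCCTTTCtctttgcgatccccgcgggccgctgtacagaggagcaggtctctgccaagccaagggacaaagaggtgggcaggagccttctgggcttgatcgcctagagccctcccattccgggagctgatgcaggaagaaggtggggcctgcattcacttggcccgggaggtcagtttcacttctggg
Oasl2, chr5:114896684-114896983, plus strand: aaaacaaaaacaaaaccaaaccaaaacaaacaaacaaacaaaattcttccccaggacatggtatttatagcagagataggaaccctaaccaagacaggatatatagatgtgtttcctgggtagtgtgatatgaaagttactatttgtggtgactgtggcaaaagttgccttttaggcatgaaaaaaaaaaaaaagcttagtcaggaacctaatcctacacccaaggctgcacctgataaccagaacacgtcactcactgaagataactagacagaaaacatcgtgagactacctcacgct

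In Samhd1 and Ifit2 the capitals mark a GAS core, 235 and 241 bases before the start, and no ISRE core was in these windows. In Apobec3 they mark an ISRE core. A further start site of Ifit2, another of Apobec3 and the windows of Oasl2 and Oasl1 held neither core, and Zbp1 has no window in the table.

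Position also tied members together. Of the 42, 17 lay in 6 clusters with gaps of at most 100 kb, on chromosomes 5, 12, 16 and 19. Fitted changes of neighbours lay close together in some clusters and apart in others. They were 1.44 and 1.42 in the Oasl pair, and ran from 0.50 to 0.74 in the Parp14, Dtx3l and Parp9 cluster. In the Oas cluster (chromosome 5, 120730333 to 120907521), changes ran from 0.39 to 0.94, in the Ifit cluster (chromosome 19, 34550694 to 34650009) from 1.10 to 1.92, and in the Mx pair from 0.13 to 1.20. No test of these differences between neighbours was made.

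Other genes of the interferon pathways were taken from 5 lists with 74 symbols, of which 72 were listed and 42 tested. Their median log2 fold change was 0.52, against -0.03 for all tested genes. At a limma adjusted p under 0.05, 2 rose and 0 fell, against 0.480% and 0.0244% of all tested genes. Irf8, a transcription factor of myeloid and dendritic cells, was among those that rose, from 10.6 and 8.16 FPKM to 26.8 and 26.2 FPKM, a log2 fold difference of 1.46 (SE 0.15, adjusted p 0.0369). The count was 0 without either 7KC replicate, 1 without control replicate 2 and 6 without control replicate 1.

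Of 21 interferon ligand genes, 18 were listed at 0 in all 4 libraries, among them Ifnb1 and each Ifna gene listed. Ifnk was listed at 0.119 FPKM in control replicate 2 and at 0 elsewhere, and Ifnz at 0.0928 and 0 FPKM in control samples and 0.058 and 0.115 FPKM in 7KC samples. Such values stand for very few reads. The only ligand gene that could be tested was Ifng, which encodes interferon gamma, a product of T and NK cells. It was at 0.408 and 0.362 FPKM in control samples and at 2.99 and 1.38 FPKM in 7KC samples. The groups were apart, with a log2 fold difference of 1.53 (SE 0.32, adjusted p 0.104). Its control mean of 0.385 FPKM lay under the filter, so Ifng was tested only because its 7KC libraries were higher.

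The receptor chains were expressed in both groups. Ifnar1 and Ifnar2, which form the type I receptor, were at 7.84 and 6.98 against 8.18 and 8.23 FPKM and at 67.5 and 65.4 against 62.7 and 67.7 FPKM, with log2 fold changes of 0.14 and -0.03. Of the interferon gamma receptor, Ifngr2 was at 16.1 and 16.1 against 25.2 and 26.5 FPKM (log2 fold change 0.66, SE 0.10, adjusted p 0.0621), and Ifngr1 at 23.5 and 20.8 against 24.8 and 35.3 FPKM (0.41, adjusted p 0.335). Il10rb, a chain shared with the lambda receptor, was at 12.9 and 10.4 against 13.5 and 21.1 FPKM (0.53, adjusted p 0.329). Ifnlr1 stayed under the filter, at 0.0378 to 0.303 FPKM. No receptor passed the threshold, and 1 (Ifngr2) had an unadjusted p under 0.05. Among the signaling genes the feedback inhibitor Socs1 had the largest change, from 2.54 and 2.07 to 18.8 and 7.17 FPKM (log2 fold change 2.12, SE 0.43, adjusted p 0.0985). Its 7KC libraries lay far apart, and it did not pass. Tmem173, which encodes the DNA-pathway adaptor STING, was at 4.38 and 3.38 against 9.83 and 11.9 FPKM (1.38, SE 0.17, adjusted p 0.0513). Mavs, the adaptor of the RNA helicases, went the other way without passing, at 36.3 and 37.3 against 32.5 and 26.8 FPKM (-0.32, adjusted p 0.3).

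**Figure D3:**
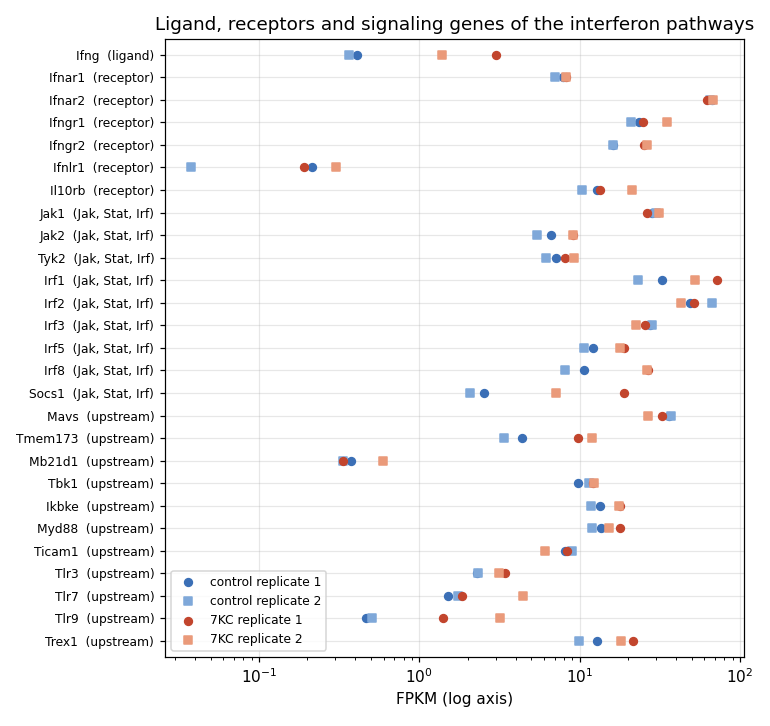
FPKM (x axis, log scale) of ligand, receptor, transducer and upstream genes above 0 in every library, in control samples (blue) and the 7KC libraries (red). Ifng, Socs1 and Irf8 separate widely, with Irf8 at 10.6 and 8.16 against 26.8 and 26.2 FPKM, while Ifnar2 and Jak1 overlap.

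Beside families of interferon-inducible GTPases the antiviral members changed less. The 11 guanylate-binding protein genes had a median log2 fold change of 1.96 with 9 past the threshold, and the 8 tested immunity-related GTPase genes one of 1.49 with 3 past the threshold. The antiviral members had 0.72 with 6 of 42, and all tested genes had -0.03 with 0.480% higher past the threshold. These medians are a description, and the difference between the families was not tested. ISRE cores were found for 5 of 5 guanylate-binding protein genes with a window and for 5 of 6 immunity-related GTPase genes.

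**Figure D4:**
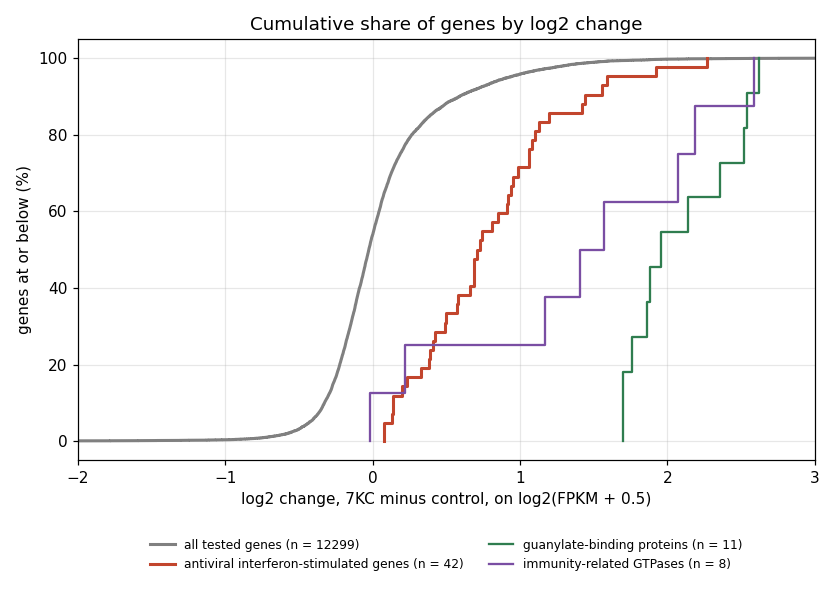
Cumulative share of genes (y axis, percent) by log2 fold change (x axis, 7KC minus control) for all 12299 tested genes, the 42 antiviral members, 11 guanylate-binding protein genes and 8 immunity-related GTPase genes. The curve of the members lies to the right of that of all genes (medians 0.72 and -0.03) and mostly to the left of the GTPase families (1.96 and 1.49).

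Markers of other cell types differed between the groups as well, although none of them passed the threshold with limma (8 of 8 tested T and NK cell markers and 6 of 9 of monocytes and macrophages were higher at an unadjusted p under 0.05). All 9 listed markers of T and NK cells lay above the control libraries in both 7KC libraries, and their summed level was 18.9 and 13.1 FPKM in the control group and 47.5 and 40.7 FPKM in the 7KC group. Markers of monocytes and recruited macrophages did so in 6 of 9, with sums of 592 and 345 against 1105 and 1740 FPKM. Most of each sum came from 1 gene, Lyz2, at 538 and 321 against 995 and 1583 FPKM. Of the plasmacytoid dendritic cell markers, from the cells that make the most type I interferon, 5 of 6 lay above in both 7KC libraries. The list summed to 12.7 and 6.74 against 16 and 22.5 FPKM, mostly from Ly6d. Only 2 of the 6 could be tested, Ly6d and Tcf4. Tcf4 overlapped, at 2.68 and 2.84 against 2.36 and 3.23 FPKM. Siglech, Ccr9, Klk1 and Pacsin1 stayed under the filter. The defining marker Siglech was at 0.296 to 0.757 FPKM. Hepatocyte markers lay below in 9 of 10, with sums of 76877 and 67879 against 55670 and 42449 FPKM. Kupffer cell markers were mixed, with 3 of 7 above and 2 below (306 and 308 against 352 and 525 FPKM). The 6 endothelial markers all overlapped (96.4 and 115 against 89.3 and 129 FPKM). B cells (13.8 and 3.06 against 7.98 and 6.97 FPKM) and neutrophils (30.8 and 16.6 against 34.4 and 35 FPKM) had 1 of 5 above each, and erythroid genes (113 and 71.3 against 76.7 and 60.7 FPKM) had 1 of 4 below. No listed marker was at 0 in all libraries, but the globin genes Hba-a2 and Hbb-bs were near 0 in each. The part of these cells in the higher levels of the antiviral genes was not tested. Of the 2 7KC libraries, replicate 1 had the higher sum for T and NK cells. Replicate 2 had the higher sum for monocytes and macrophages, which was mostly Lyz2. The T and NK cell marker Klrb1c, with a control mean of 0.347 FPKM, met the filter only through its 7KC libraries. Over all tested genes, 12.0% were higher at an unadjusted limma p under 0.05. Both 7KC libraries lay above the control libraries in 25.1% of all tested genes and below them in 27.4%.

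**Figure D5:**
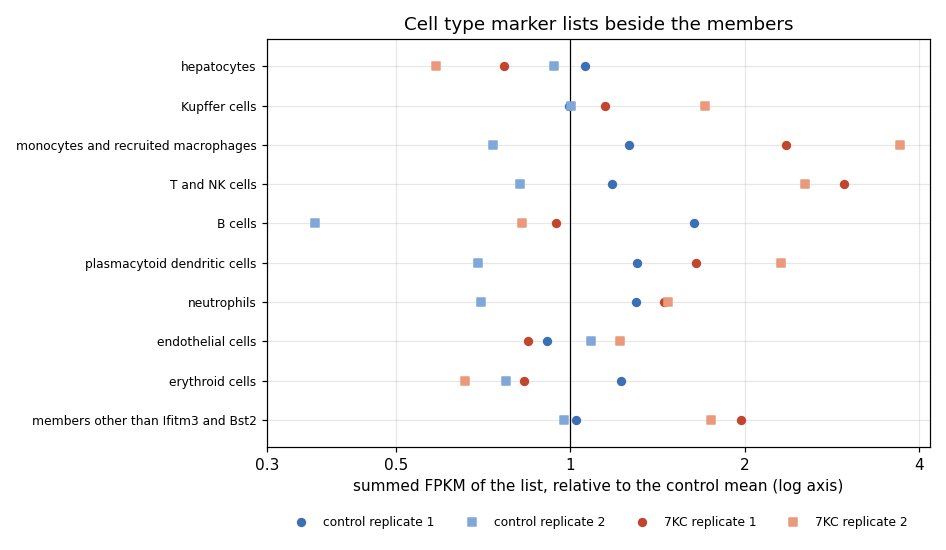
Summed FPKM of each cell type marker list and of the 40 members other than Ifitm3 and Bst2, divided by the control mean of the list (x axis, log scale), in the 2 control libraries (blue) and the 2 7KC libraries (red). T and NK cell and monocyte and macrophage lists lie to the right in both 7KC libraries, as do the members. The hepatocyte list lies to the left. The monocyte and macrophage sum is mostly Lyz2.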

How the data were processed

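Liver RNA of 2 control and 2 7KC libraries was sequenced by the authors as single-end reads from stranded messenger RNA libraries and mapped to mm10. The submitters' processing notes name TopHat2 2.1.1, Bowtie2 2.2.8, SAMtools 0.1.18 and Cuffdiff 2.2.1. The authors deposited FPKM, 1 value per gene symbol and library. The annotation and the treatment of multi-mapped reads and strand are not given in the sources used here. The median ratio of each library to the geometric mean of 14511 genes was 1.0006 to 1.0027, so the values were already scaled to the typical gene, and a shift shared by most genes cannot be seen. Low values fell on steps of whole reads: after shortening each GENCODE M21 transcript by a 200-base fragment, 71.1% to 73.6% of values of up to 10 reads were whole to within 0.1 read, where 20% would be by chance. The recovered depths carry that scaling and cover counting error only.

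Genes averaging 0.5 FPKM or more were compared as log2(FPKM + 0.5) with limma 3.58.1 in R 4.3.3 (variance trend, group as the only term, 2 residual and 3.27 prior degrees of freedom), with Benjamini-Hochberg adjustment over all tested genes. The fit was tested on simulated data. A gene of the pathway lists is counted but not reported here. Members were read by role; the full statistics were given for members past the threshold and the 2 largest changes of each role. Members and lists were chosen with earlier results of these data known. Promoter windows and ISRE sites came from RefSeq on GRCm38.p6, and the sites shown were chosen after the values were seen. Alternatives changed the pseudocount, filter, scaling, variance trend, replicate block and libraries.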

Additional observations from a re-analysis of the deposited data

How the results depend on the processing

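Against 6 members, 59 genes higher, 3 lower and 2 pathway genes higher, counts past the threshold moved with the processing. With no filter they were 0 members, 0 higher, 1 lower and 0 pathway genes, with 32 members at an unadjusted p under 0.05. Rescaled to the same sum they were 20, 398, 7 and 11, which shifted the all-gene median by about as much as that of the members, from -0.03 to 0.16 and from 0.72 to 0.90. A pseudocount of 1 FPKM gave 111 higher and 4 pathway genes, and no variance trend 4 members, 39 higher, 1 lower and 1 pathway gene. The members numbered 5 under quantile normalization and 4 with a mean of at least 5 FPKM. Leaving out a library, where the lone sample left is assumed to vary like the other group, gave 0 to 11 members, 2 to 404 higher, 1 to 54 lower, and 0 to 6 pathway genes. With the replicate block the counts were 0, 0, 0 and 0, with 31 members at an unadjusted p under 0.05. The numbers do not pair the samples by any label, and deviations of same-numbered libraries correlated at -0.141 across genes. The crossed block, chosen after seeing the data, gave 15, 551, 37 and 5. With a mean of at least 5 FPKM, 25 members were tested, of which 7 were at least 2-fold higher and 22 without overlap. Quantile normalization moved the members' median to 0.63. The sign turned in 4 members. Leaving out a library, the log2 fold change ran from -0.02 to 0.18 in Trim25 (lowest without 7KC replicate 2), and from -0.03 to 0.28 in Mx2, from -0.02 to 0.30 in Ifitm3 and from -0.08 to 0.25 in Bst2 (each lowest without 7KC replicate 1). Under quantile normalization Mx2 was at -0.05. The causes were not tested. For members near 0.5 FPKM, such as Oas1b, a value rested on about 11.1 to 13.9 reads at median length.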

Other observations

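Relatives of the members were read from a list of 26 symbols, of which 24 were listed and 16 tested. None passed the threshold with limma, against 0.480% of all tested genes that passed and were higher. At an unadjusted p under 0.05, 10 were higher and 0 lower, against 12.0% of all tested genes higher. In 12 of the 16 each 7KC library exceeded each control library, which held for 25.1% of all tested genes. Ifit3b, a near copy of Ifit3, was at 1.77 and 1.2 FPKM in control samples and at 4.47 and 3.28 FPKM in 7KC samples (log2 fold change 1.14, limma adjusted p 0.0934). Ifitm2, the relative of Ifitm3, overlapped like it, at 558 and 432 against 510 and 497 FPKM. Gm12250, annotated as a processed pseudogene and related to the immunity-related GTPases, had the largest change of this list, from 3.19 and 3 to 23 and 12.8 FPKM (2.30, adjusted p 0.0512).

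Apobec1, whose product edits apolipoprotein B messenger RNA, was at 9.38 and 10 against 15.1 and 20.8 FPKM (0.84, adjusted p 0.104). The Parp family genes Parp10, Parp11, Parp12 and Zc3hav1 (Parp13) were each higher in both 7KC libraries. Their log2 fold changes were 0.47, 0.70, 0.52 and 0.49, and none passed. Trim30d, next to Trim30a, was at 3.11 and 3.03 against 3.14 and 3.54 FPKM, a log2 fold difference of 0.10. The difference from Trim30a was not tested.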
